A study of Mus musculus with 30 samples.

Results

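Serpins are a family of proteins that share one fold with an exposed reactive loop. The members were taken as every non-control probe whose gene name in the array files begins with Serpin, which gave 73 probes for 54 genes among the 41174 probes and 28786 genes of the array. Of these, 48 probes for 39 genes were bright enough to be tested, among 29986 probes and 21071 genes in all. The clades (the lettered subfamilies) were unequal: 20 of the 54 genes belonged to clade A and 24 to clade B, and the other 10 were spread over clades C to I. By clade, 18 of 20 clade A genes and 12 of 24 clade B genes passed, against 9 of the other 10.

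Liver RNA of 30 mice was measured on 30 single-colour arrays, 1 mouse per array. They came from a pair of inbred lines, C57BL/6 (here B6) and DBA/2 (here D2). Their feed was a balanced diet with 200 mg of iron per kg, an enriched diet with 8.3 g per kg or a deficient diet with less than 3 mg per kg, with 5 mice in each of the 6 groups. The labels give every mouse an animal code of its own. No mutation or transgene is named for any group, while sex, age and length of feeding are not stated in the labels. On each array 62.5% to 78.4% of probes were well above background, and precision is limited by how many arrays there are. The summed signal of 7 hepatocyte markers lay between 20.35 and 20.52 (log2) in B6 and between 20.16 and 20.39 in D2. Within a diet it was lower in D2 without overlap on the balanced and enriched diets and overlapped on the deficient diet. Pancreatic acinar markers summed to between 10.41 and 11.71 in every mouse. In whole liver, fewer cells of a type and less RNA per cell cannot be told apart.

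An inhibitory serpin offers its loop to a protease as bait, is cut, and snaps shut around the enzyme, which inactivates both. Some members have lost this function and carry hormones or help other proteins fold instead. Hepatocytes secrete many clade A serpins and the serpins of clades C, D, F and G into blood, where they restrain elastase, clotting enzymes, plasmin and complement. Clade B members stay mostly inside cells. In mice the genes related to human alpha-1-antitrypsin (Serpina1) and antichymotrypsin (Serpina3) have multiplied into a pair of clusters in 1 stretch of a chromosome, and close copies can share probe signal, which was not tested.

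Comparison of D2 with B6 livers, averaged over the diets, asked how far the strains differ. Signals below are log2 of the quantile-normalised intensity of the brightest probe of a gene. Differences are on the same log2 scale, with the SE of a limma fit over all 21071 genes. The p is adjusted over those genes by Benjamini-Hochberg, and a gene was called under 0.05. Probes were not checked for sequence that differs between the strains, which could shift a signal without a change in RNA. Of the 39 tested serpin genes 28 were called, 18 higher and 10 lower in D2, while 50% of all tested genes were called in this comparison, 25.9% higher and 24.2% lower. The median absolute difference of the 39 was 0.45, beside 0.21 over all tested genes. Serpinb8 (3.38) and Serpina11 (2.55), above background on every array, were far higher in D2. Serpina3a (4.45) and Serpina5 (1.86) were higher as well, but 13 and 12 of their 15 B6 values sat at the floor, the lowest signal used (3.92), so the size of these gaps moved with the floor and is given no rank. Of the 28 called genes 7 differed at least 2-fold, and in 7 the strains did not overlap on any of the 3 diets. Neither count was made over all tested genes, so whether serpins stand out in them is not known. By the brightest probe, 11 of 18 clade A genes were higher and 3 lower in D2, and 1 of 12 clade B genes was higher and 6 were lower, a difference between clades that was not tested. The 6 lower clade B genes are the Serpinb1 and Serpinb6 genes. Whether related copies share probe signal was not tested, so these may not be 6 separate signals. The 10 lower genes, and the 3 of clade A, include Serpina3k, whose probes gave opposite directions. Among the single-gene or paired clades C to I, 6 of 9 genes were higher and 1 was lower.

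**Figure D1:**
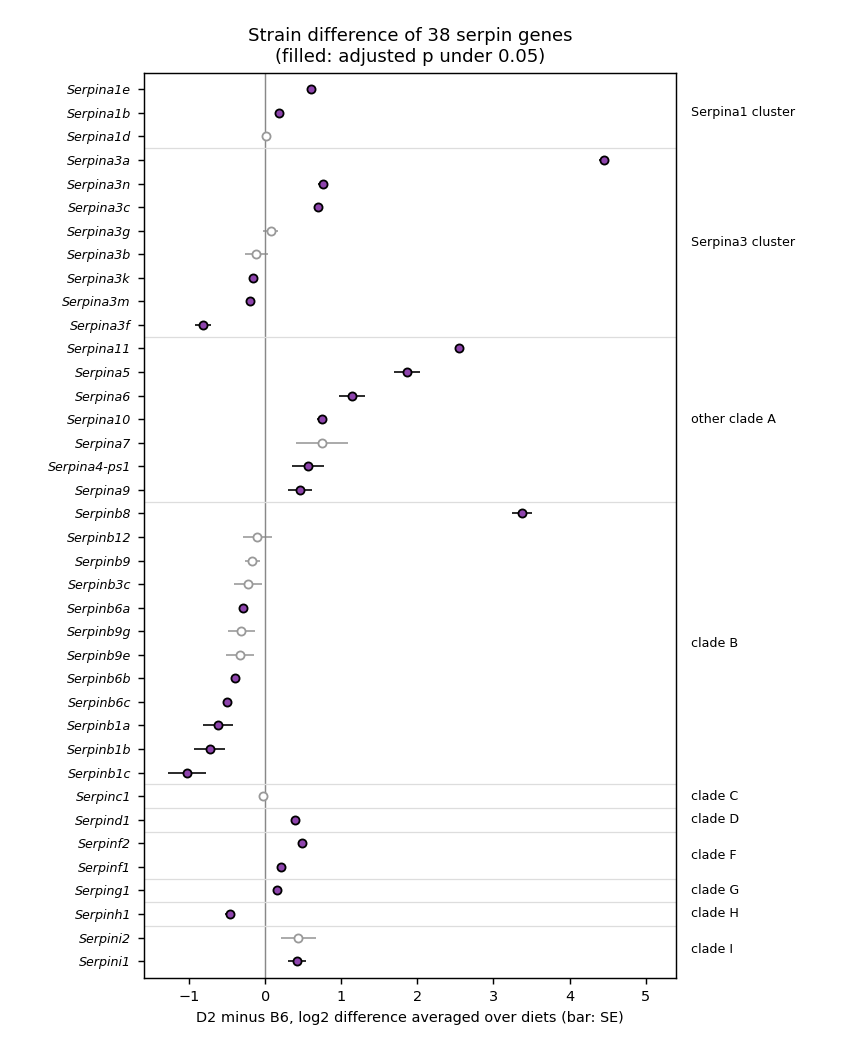
Difference between D2 and B6 livers (log2, averaged over the diets, horizontal axis) of 38 of the 39 tested serpin genes, grouped by cluster or clade. Points are estimates from 15 mice per strain, bars are SE, and filled points passed an adjusted p of 0.05. Serpina3a stands at 4.45, with 13 of its 15 B6 values at the floor, and of the clade B genes only Serpinb8 lies to the right of 0.

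The split of directions moved with the scaling. Without normalization between arrays 13 members were higher and 13 lower, and with 75th percentile scaling 16 were higher and 11 lower. Of all called genes 28.6% were higher in D2 without normalization and 46.7% with 75th percentile scaling, against 51.7% after quantile normalization. Without normalization the median gene of the whole array shifted to -0.17 in D2. Small gaps moved with that shift: Serpina1b and Serping1, the C1 inhibitor of complement, lost their calls in that setting. The arrays were read on 3 scan days recorded in the files, with 5, 11 and 14 arrays. Within scan day 2 the count was 19 and within scan day 3 it was 22, with 13 higher and 6 lower in the first and 14 higher and 8 lower in the second. The share of all genes called within a scan day was not counted.

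The Serpina1 cluster encodes forms of alpha-1-antitrypsin, the main plasma inhibitor of neutrophil elastase. Serpina1b, Serpina1d, Serpina1e and Serpina1f were on the array, and Serpina1f did not pass the filter. The RefSeq promoter table (250 bases before to 50 after each annotated start, build GRCm38.p6) matched 44 of the 54 member genes. The windows of the 3 tested Serpina1 genes are shown because their transcripts behaved differently although these stretches are nearly alike. Each window is 80 bases on the minus strand, upstream of the annotated start, at chr12:103738200-103738279 for Serpina1b, chr12:103773634-103773713 for Serpina1d and chr12:103956960-103957039 for Serpina1e. Capitals mark the letters GTTAAT, which belong to the binding consensus of the liver factor HNF1:
Serpina1b: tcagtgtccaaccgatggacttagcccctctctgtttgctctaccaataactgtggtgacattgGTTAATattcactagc
Serpina1d: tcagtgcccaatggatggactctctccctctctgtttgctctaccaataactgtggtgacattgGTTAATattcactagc
Serpina1e: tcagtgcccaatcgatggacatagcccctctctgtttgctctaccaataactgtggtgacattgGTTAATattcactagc
Of the 80 positions 77 were identical between Serpina1b and Serpina1e, 74 between Serpina1d and Serpina1e, and 73 between Serpina1b and Serpina1d. The letters GTTAAT, searched on both strands in the 250 bases before the start, occurred in 6.43% of all 32851 promoters and in 9 of the 44 matched member genes (20.5%), Serpina3c, Serpina7 and Serpinb8 among them. The first share counts promoters and the second counts genes, so they are not like for like. The 3 Serpina1 genes shown above are among the 9, and no enrichment was tested. A match of letters is a description and not a site. The windows are reference sequence, and no D2 sequence was examined.

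Serpina1e was the Serpina1 gene that moved most. Its signal in balanced B6 livers was 17.08, 16.80, 16.97, 17.09 and 16.93, and in enriched B6 livers 16.46, 16.40, 16.44, 16.61 and 16.34. Every enriched B6 mouse lay below every balanced one. Deficient B6 livers lay between, at 16.69, 16.76, 16.58, 16.84 and 16.86. In D2 the balanced livers had 17.14, 17.53, 17.19, 17.46 and 17, the enriched livers 17.27, 17.23, 17.44, 17.44 and 17.40 and the deficient livers 17.30, 17.27, 17.35, 17.51 and 17.23. The 3 D2 groups overlapped one another. All 15 D2 mice were above the B6 mean of their diet, and the strains overlapped on the balanced diet only. Averaged over diets, Serpina1e was 1.51-fold higher in D2 (0.59, SE 0.0511, adjusted p = 1.34e-10). Serpina1b differed less, by 0.18 (SE 0.0407, adjusted p = 0.000419), with means of 17.80 in D2 and 17.62 in B6. Serpina1d did not differ beyond its error, with a difference of 0.00 and a 95% interval of -0.06 to 0.07. Its signal lay between 18.36 and 18.61 in all 30 mice. At this brightness quantile normalization assigns levels by rank, and the same few values recurred, which limits how small a change can show.

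The Serpina3 cluster lies further along the same chromosome, with Serpina10, Serpina6, the Serpina1 genes, Serpina11, Serpina9, Serpina12 and Serpina5 before it in RefSeq gene order. Its products relate to antichymotrypsin. All 8 Serpina3 genes of the array passed the filter, and 6 differed between strains. Serpina3a, Serpina3c and Serpina3n were higher in D2, Serpina3f and Serpina3m were lower, and the probes of Serpina3k disagreed. Promoter windows of 80 bases are shown for a pair that was higher in D2 (Serpina3c and Serpina3n) and one that was lower (Serpina3f). They lie at chr12:104153912-104153991 on the minus strand (Serpina3c), chr12:104406586-104406665 on the plus strand (Serpina3n) and chr12:104214415-104214494 on the plus strand (Serpina3f). Capitals mark the longest run that the last 100 bases before the 3 starts share:
Serpina3c: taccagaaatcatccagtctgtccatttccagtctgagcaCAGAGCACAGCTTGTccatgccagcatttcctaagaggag
Serpina3n: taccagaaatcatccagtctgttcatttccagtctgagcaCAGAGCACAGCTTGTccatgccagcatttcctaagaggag
Serpina3f: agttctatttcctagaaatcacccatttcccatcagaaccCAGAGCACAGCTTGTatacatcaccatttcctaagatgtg
Serpina3c and Serpina3n were identical at 79 of 80 positions, and Serpina3f matched Serpina3c at 50 and Serpina3n at 49. The shared run CAGAGCACAGCTTGT, found in either orientation, occurred in 5 of all 32851 promoters (0.0152%), those of Serpina3c, Serpina3f and Serpina3n included. The windows and motifs were chosen after the values were known. All windows come from the same reference build. No D2 sequence was examined, so they cannot show whether the strains differ in these stretches.

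Serpina3n, an acute-phase serpin, had 14.88, 14.35, 14.23, 14.73 and 14.54 in balanced, 14.35, 14.44, 14.64, 14.63 and 14.45 in enriched and 14.52, 14.21, 14.45, 14.58 and 14.52 in deficient B6 livers. In D2 the values were 15.40, 15.07, 15.09, 15.32 and 14.85 on the balanced, 15.45, 15.42, 15.11, 15.22 and 15.11 on the enriched and 15.46, 15.23, 15.27, 15.46 and 15.46 on the deficient diet. The strains overlapped only on the balanced diet, where the lowest D2 mouse fell below the highest B6 mouse, and Serpina3n was 1.69-fold higher in D2 (0.76, SE 0.0661, adjusted p = 1.72e-10). Serpina3c was higher in D2 as well, by 0.69 (SE 0.0525, adjusted p = 1.28e-11), with no overlap on any diet. Its values were 16.67, 16.95, 16.79, 17.03 and 17.02 in balanced B6 and 17.49, 17.62, 17.63, 17.60 and 17.34 in balanced D2 livers. Enriched B6 livers had 16.70, 16.65, 16.95, 16.89 and 16.72, and enriched D2 livers had 17.44, 17.43, 17.48, 17.44 and 17.39.

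Serpina3a was measured well in D2 only. D2 livers had 8.04, 8.59, 8.28, 8.61 and 8.45 on the balanced, 8.53, 8.50, 8.49, 8.73 and 8.47 on the enriched and 8.01, 7.95, 8.52, 8.65 and 7.89 on the deficient diet. In B6 13 of 15 values sat at the floor of 3.92, the highest was 4.05, and the scanner software marked the probe well above background on 7 of 15 arrays. The fitted gap of 4.45 (adjusted p = 3.7e-27) moved with the floor and the background correction, to 5.24 with a floor of 1 and 2.38 after normexp. All D2 mice lay above all B6 mice on each diet.

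Serpina3f went the other way and was 1.77-fold lower in D2 (-0.82, SE 0.111, adjusted p = 4.76e-07), and its other probe gave -0.58 (adjusted p over probes = 9.09e-06). B6 livers had 9.04, 8.78, 8.86, 8.02 and 8.44 on the balanced, 8.62, 8.85, 8.61, 8.58 and 8.98 on the enriched and 9.04, 8.79, 9.31, 8.94 and 8.91 on the deficient diet. D2 livers had 7.75, 7.89, 8.23, 7.20 and 8.08, 8.48, 7.96, 8.12, 7.95 and 7.98 and 8.01, 7.48, 7.72, 8.29 and 8.36 on the same diets. The strains overlapped on the balanced diet only. Serpina3m was lower in D2 by a small amount (-0.20, SE 0.0331, adjusted p = 1.44e-05), with values of 19.00, 19.00, 19.00, 19.00 and 18.91 in balanced B6 and 18.78, 18.85, 18.78, 18.72 and 18.71 in balanced D2 livers. This probe was saturated on 1 array and, since quantile normalization assigns fixed levels by rank, took 21 distinct levels over the 30 arrays. Serpina3k, which binds tissue kallikrein, had 2 tested probes that disagreed: the brighter one was lower in D2 (-0.17, adjusted p = 0.0061) and the other higher (0.42, adjusted p over probes = 1.3e-08), so no direction is given. Serpina3g (0.07, 95% interval -0.14 to 0.28) and Serpina3b (-0.12, -0.43 to 0.19) did not pass.

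**Figure D2:**
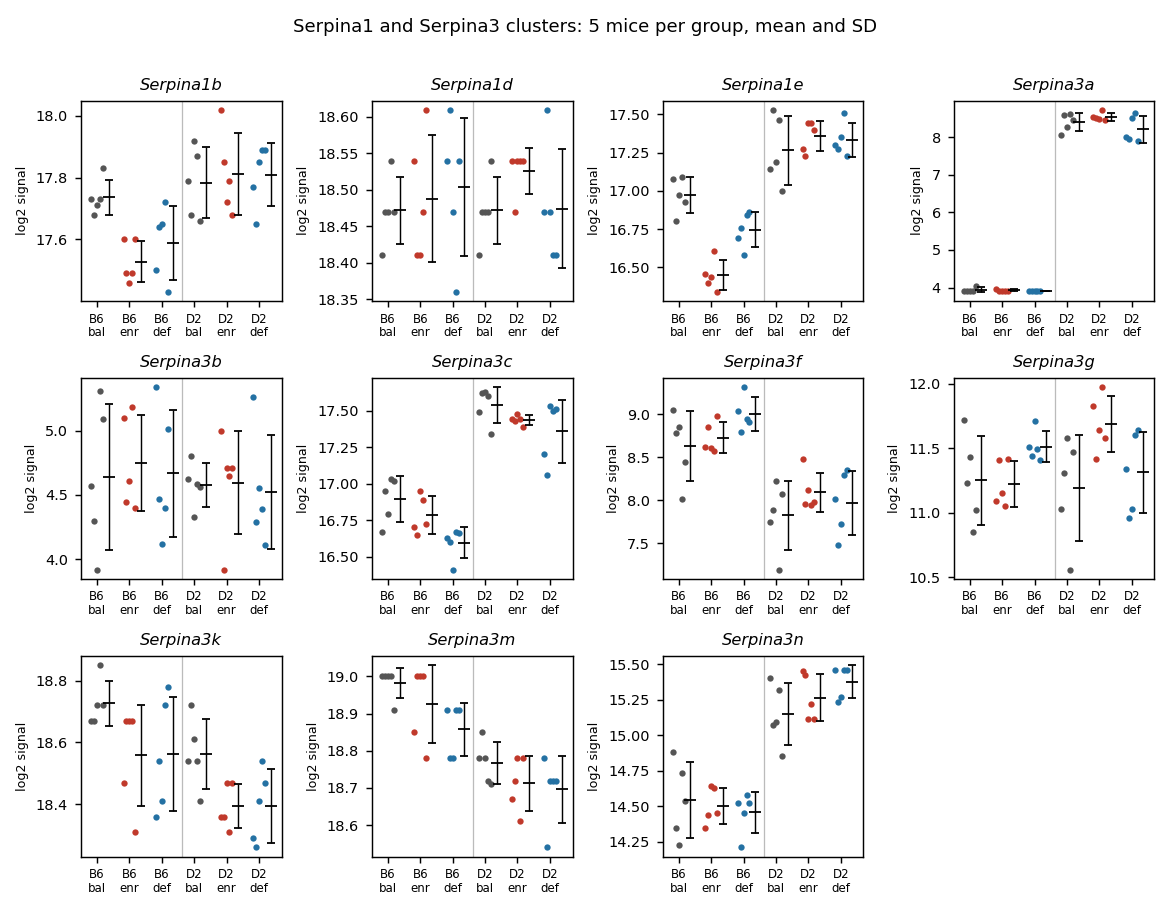
Log2 signal (vertical axis, own scale in each panel) of the Serpina1 and Serpina3 genes in B6 and D2 livers on the balanced (bal), enriched (enr) and deficient (def) diet. Each point is 1 of 5 mice per group, and the bar to the right is the mean with SD. Serpina3a lies near the floor of 3.92 in B6 and between 7.89 and 8.73 in D2, and Serpina1e is lowest in enriched B6 livers.

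Of the 7 other tested clade A genes 6 were higher in D2 and none was lower. Serpina11 was 5.84-fold higher (2.55, SE 0.0508, adjusted p = 1.32e-24). Its values were 12.51, 12.85, 12.94, 12.87 and 12.98 in balanced B6 and 15.07, 15.40, 15.25, 15.06 and 15.16 in balanced D2 livers, and no D2 mouse overlapped a B6 mouse on any diet. Serpina5, the protein C inhibitor, was above background on all 15 D2 arrays but on 4 of 15 B6 arrays and on no array of deficient B6 livers. Against the lowest signals that could be measured there, it was at least 3.2-fold higher in deficient D2 livers (measured means of 5.67 and 3.92). Such a bound sets the bright group's mean against, per array, the higher of the dim signal and the lowest signal well above background. The fitted gap over all diets was 1.86 (SE 0.173, adjusted p = 6.51e-10), and 3.08 with a floor of 1 or 0.72 after normexp. A further Serpina5 probe was above background on 1 of 30 arrays. Serpina10, which with protein Z blocks clotting factor X, was 1.68-fold higher in D2 (0.75, SE 0.068, adjusted p = 4.37e-10), with means of 12.68 and 11.93. Serpina9, also known as centerin, was 0.45 higher (adjusted p = 0.0191), and the pseudogene Serpina4-ps1 0.56 (adjusted p = 0.0308), while its other probe did not pass (0.79, adjusted p over probes = 0.159). The call of Serpina4-ps1 was lost without any single mouse of 5, namely mouse 3 of balanced B6, mouse 3 of deficient B6, mouse 2 of enriched B6, mouse 3 of deficient D2 or mouse 1 of enriched D2 (adjusted p up to 0.0547), without normalization and within scan day 3. The call of Serpina9 was lost with 75th percentile scaling (0.40, adjusted p = 0.0534), without normalization (0.29), within scan day 3 (0.18) and without the arrays of scan day 1 (0.45).

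Serpina6 and Serpina7 carry corticosteroids and thyroxine in blood and do not inhibit proteases. Serpina6 was 2.21-fold higher in D2 (1.15, SE 0.171, adjusted p = 2.33e-06). Balanced B6 livers had 12.77, 13.49, 13.46, 13.54 and 13.41 and balanced D2 livers 15.64, 14.48, 15.61, 15.30 and 15.52, with no overlap, while the enriched groups (13.23 to 14.37 in B6 and 14.44 to 15.40 in D2) did not overlap and the deficient groups (13.26 to 14.98 and 14.19 to 15.11) did. The strain gap was widest on the balanced diet, but neither test of a difference in diet effect passed (-1.02 for enrichment, adjusted p = 0.303, and -1.47 for deficiency, adjusted p = 0.391, both D2 minus B6). Serpina7 did not pass between strains (0.74, adjusted p = 0.075, 95% interval 0.04 to 1.45). Its spread within a group was wide: balanced B6 livers had 6.62, 9.09, 8.71, 5.37 and 7.68, enriched B6 livers 9.31, 9.74, 8.92, 9.06 and 10.02 and deficient B6 livers 8.56, 10.69, 10.65, 8.27 and 8.51. Its changes in B6 were 1.91 on the enriched (adjusted p = 0.056) and 1.84 on the deficient diet (adjusted p = 0.127). Both are set against the same 5 balanced mice, of which mouse 4 was lowest. In D2 the corresponding changes were -0.42 and -0.04.

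The serpins of the clotting and fibrinolytic systems differed from one another. Serpinc1, antithrombin, was the steadiest of them: the difference between strains was -0.02 with a 95% interval of -0.08 to 0.03, and its 30 values ran from 17.48 to 17.78. Without normalization between arrays it was lower in D2 (-0.12, adjusted p = 0.0133), less than the shift of the median gene in that setting. Serpind1, heparin cofactor II, a thrombin inhibitor, was higher in D2 by 0.39 (SE 0.0438, adjusted p = 2.17e-08) with no overlap on any diet. Serpinf2, the plasmin inhibitor alpha-2-antiplasmin, was higher by 0.49 (SE 0.048, adjusted p = 1.9e-09), also with no overlap. Of 29 other clotting and fibrinolysis genes 9 were higher and 11 lower in D2, with a median of 0.05.

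Serpinf1 (PEDF), a secreted serpin without known protease target, was higher in D2 by 0.21 (SE 0.0327, adjusted p = 6.36e-06). Serping1 was higher by 0.15 (SE 0.0506, adjusted p = 0.0136), a call lost without normalization (0.08), within scan day 2 (0.18) and within scan day 3 (0.04). Of 22 other complement genes 12 were higher and 6 lower in D2. Serpinh1, the collagen chaperone Hsp47 of the endoplasmic reticulum, was 1.38-fold lower in D2 (-0.46, SE 0.0654, adjusted p = 1.07e-06). Its means were 10.59 ± 0.238 (SD, n = 5) in balanced B6 and 10.43 ± 0.183 in balanced D2 livers, which overlapped, and the strains were apart on the enriched and deficient diets. Of 12 collagen and collagen-folding genes 1 was higher and 4 were lower in D2. In clade I, Serpini1, known as neuroserpin, was higher in D2 (0.41, adjusted p = 0.00501) at signals near the floor, a call lost with 75th percentile scaling, without normalization and within scan days 2 and 3. Serpini2 did not pass (0.43, 95% interval -0.05 to 0.91), though it did with scan day or slide as a block and without the day 1 arrays.

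Clade B serpins act mostly inside cells, and many are known from blood cells and epithelia. Serpinb8 was the exception to their direction, 10.4-fold higher in D2 (3.38, SE 0.133, adjusted p = 7.09e-18). Balanced B6 livers had 5.86, 6.15, 6.11, 5.12 and 5.77 and balanced D2 livers 9.14, 8.69, 9.15, 8.61 and 8.95, and the strains did not overlap on any diet. Its other probe gave a smaller gap of 1.85 (adjusted p over probes = 1.52e-09), and after normexp background correction the main probe gave 2.19. The 3 Serpinb1 genes were lower in D2, with differences of -0.62 (SE 0.196, adjusted p = 0.00906) for Serpinb1a, -0.73 (SE 0.206, adjusted p = 0.00397) for Serpinb1b and -1.03 (SE 0.249, adjusted p = 0.00101) for Serpinb1c. They overlapped between strains on every diet. All 3 calls were lost within scan day 2, at -0.74, -0.78 and -0.89, and within scan day 3, at -0.70, -0.76 and -1.20, and that of Serpinb1a also without the day 1 arrays. The 3 Serpinb6 genes were lower as well. Serpinb6c differed by -0.50 (SE 0.0527, adjusted p = 6.12e-09) with no overlap on any diet, Serpinb6b by -0.39 (SE 0.0623, adjusted p = 5.6e-06) and Serpinb6a by -0.29 (SE 0.0465, adjusted p = 7.13e-06). Serpinb9, which protects cells from granzyme B, did not pass (-0.17, adjusted p = 0.184). It was lower in D2 with 75th percentile scaling (-0.29, adjusted p = 0.00434), without normalization (-0.40), within scan day 3 (-0.46) and with scan day (-0.24) or slide (-0.27) as a block. Serpinb3c (-0.23), Serpinb9e (-0.33), Serpinb9g (-0.32) and Serpinb12 (-0.10) did not pass, though Serpinb9e did with 75th percentile scaling and without normalization and Serpinb9g did within scan day 3.

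Markers of some other liver cells differed between the strains beside these clade B genes. Of 6 Kupffer cell markers 6 were lower in D2 (median -0.74), and their summed signal was 15.39 to 16.52 in the 15 B6 and 14.66 to 15.34 in the 15 D2 livers. Of 6 sinusoidal endothelial markers 6 were lower (median -0.27), with sums of 14.71 to 15.18 in B6 and 14.51 to 14.79 in D2. Of 5 markers of T and NK cells 3 were lower and 1 higher (sums of 9.89 to 11.79 in B6 and 9.21 to 12.26 in D2), and of 5 cholangiocyte markers 3 were lower (12.11 to 13.36 and 11.58 to 12.27). Of 5 tested neutrophil markers 1 was higher (9.22 to 10.97 and 8.60 to 10.88), and the defining granule gene Elane was above background on no array. Of 6 stellate cell markers 2 were higher and 1 lower (median 0.21), and of 4 B cell markers 1 was higher and none lower (median 0.25). Of 14 male-biased liver genes 12 were higher in D2 and none lower (median 0.85), and of 12 female-biased genes 1 was higher and 9 were lower (median -1.14). The part of these genes and cells in the serpin differences was not tested.

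How serpin transcripts respond to excess iron was tested as enriched against balanced livers. As a mean of both strains 2 of the 39 serpin genes passed, both lower, where 2.25% of all tested genes passed and 1.03% were lower. Serpina11 was 1.21-fold lower (-0.28, SE 0.0622, adjusted p = 0.0133), with 9 of 10 enriched mice below the balanced mean of their strain. Serpinb8 fell by 0.60 (SE 0.162, adjusted p = 0.0483), also in 9 of 10 mice, and its other probe gave -0.18 (adjusted p over probes = 0.825). That call was lost in 10 of 13 other settings, with changes from -0.76 to -0.26, and without any single mouse of 23 (adjusted p up to 0.0969). The median change of the 39 was -0.07, beside 0.01 over all tested genes. Serpinc1 changed by 0.09 (95% interval 0.01 to 0.16) and did not pass.

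Within B6 3 serpins fell on the enriched diet, where 5.91% of all genes passed and 2.56% were lower. The changes were -0.52 (SE 0.0885, adjusted p = 0.000412) for Serpina1e, -0.45 (SE 0.0879, adjusted p = 0.00194) for Serpina11 and -0.96 (SE 0.23, adjusted p = 0.0104) for Serpinb8. Serpina1e and Serpina11 are next to each other in the RefSeq order of serpin genes. Serpina11 went from 12.51, 12.85, 12.94, 12.87 and 12.98 to 12.35, 12.34, 12.45, 12.49 and 12.29, without overlap. Serpinb8 went from 5.86, 6.15, 6.11, 5.12 and 5.77 to 4.72, 5.41, 4.24, 4.81 and 5.02, and balanced mouse 4 lay below enriched mouse 2, so the groups overlapped. Its other probe gave -0.25 in these livers (adjusted p over probes = 0.781). The call in B6 was lost after normexp correction (-0.35, adjusted p = 0.13), within scan day 2 (-0.46) and day 3 (-0.99) and with the compared groups fitted alone (adjusted p = 0.0868). Serpina1b was lower in all 5 enriched B6 mice without overlap (-0.21) and missed the threshold (adjusted p = 0.087), though it passed with 75th percentile scaling, normexp correction and slide as a block. Serpina1d changed by 0.02 (95% interval -0.10 to 0.13) in the same livers.

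In D2 no serpin passed on the enriched diet (limma, 2 at an unadjusted p under 0.05), where 0.0902% of all genes passed. The change of Serpina1e was 0.09 (95% interval -0.09 to 0.28), of Serpina11 -0.10 (-0.28 to 0.08) and of Serpinb8 -0.23 (-0.70 to 0.24). The difference between strains in the enrichment effect was called for 1 serpin, Serpina1e (0.62, SE 0.125, adjusted p = 0.0112, D2 minus B6), where 1.11% of all genes were called and 0.427% had the same sign. For Serpina11 it was 0.34 (adjusted p = 0.211) and for Serpinb8 0.73 (adjusted p = 0.356), so these were not shown to differ between strains.

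Scan days were spread unevenly over the groups, and of the enriched B6 arrays 1 was read on day 2 and 4 on day 3. With scan day as a block Serpina1e changed in enriched B6 livers by -0.50, by -0.67 within day 2 (adjusted p = 0.453) and -0.48 within day 3 (adjusted p = 0.0297). Its difference between strains was 0.61 with the block, 0.83 within day 2 and 0.73 within day 3. That call was lost within both days, without the day 1 arrays (0.62, adjusted p = 0.0651) and without normalization (0.43, adjusted p = 0.0699). Serpina11 in enriched B6 livers changed by -0.18 within day 2 and -0.50 within day 3, and averaged over strains by -0.09 and -0.28. Serpinb8 averaged over strains changed by -0.34 and -0.76, passing on neither day.

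Male-biased liver genes, counted here because the sex of the mice is not stated, differed in enriched B6 livers too. Of the 14 such genes 10 were lower in B6 (median -1.26) and none passed in D2 (median 0.03), and of the 12 female-biased genes 5 were higher in B6 (median 1.40) and none passed in D2 (median -0.17). Of 22 complement genes 7 were lower in B6 and none passed in D2 on this diet, and C8a stands in both the complement and the male-biased list. Their part in the serpin results was not tested.

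The 3 Serpinb1 genes shared a pattern of individual mice. In balanced B6 livers Serpinb1a had 10.61, 10.61, 10.51, 8.88 and 10.47, Serpinb1b 7.60, 7.74, 7.86, 5.95 and 7.58 and Serpinb1c 7.24, 7.68, 7.75, 5.44 and 7.50, and mouse 4 was lowest for each. In enriched B6 livers mouse 3 was lowest for each (8.27, 5.41 and 5.33). The enriched change in B6 was -1.08 for Serpinb1a (adjusted p = 0.0568), -1.06 for Serpinb1b (0.0809) and -0.87 for Serpinb1c (0.296), none past the threshold, and Serpinb1b passed after normexp correction. Whether the probes of these close copies share signal was not tested.

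**Figure D3:**
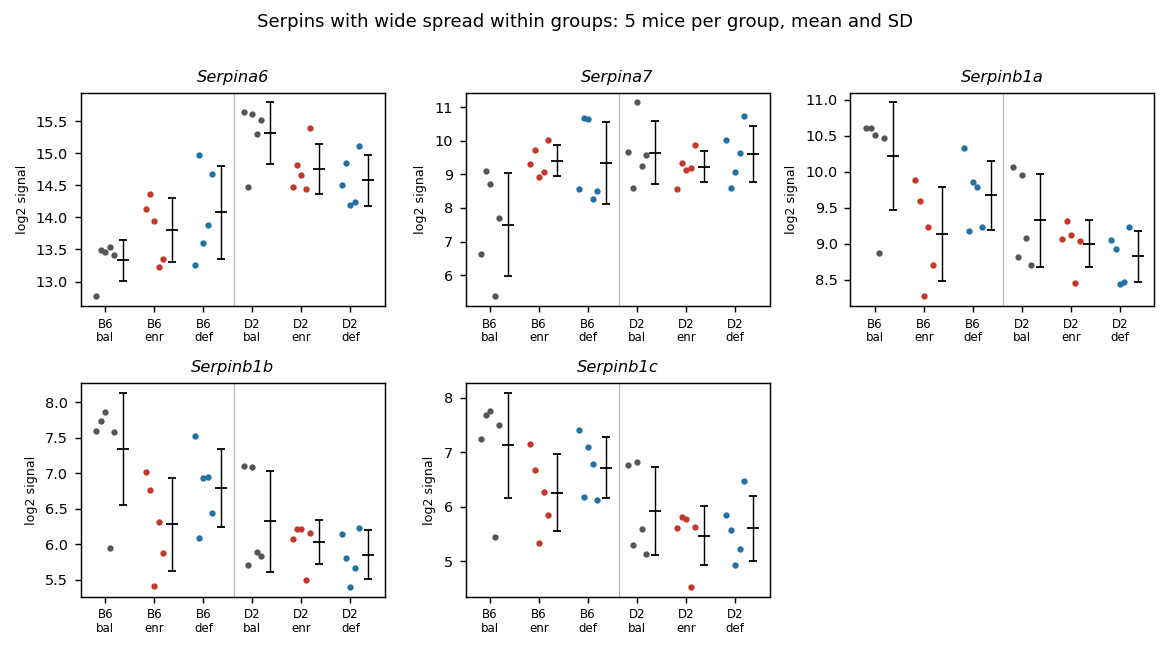
Log2 signal (vertical axis, own scale in each panel) of serpins whose mice varied widely within a group, on the balanced (bal), enriched (enr) and deficient (def) diet in B6 and D2. Points are the 5 mice of a group and bars are the mean with SD. Balanced B6 mouse 4 is the lowest point of its group for Serpina7, Serpinb1a, Serpinb1b and Serpinb1c.

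Lack of iron was tested as deficient against balanced livers. As a mean of both strains 5 of 39 serpin genes passed, all of them lower, where 8.11% of all tested genes passed and 4.20% were lower. Serpind1 was the clearest, at -0.32 (SE 0.0537, adjusted p = 0.00044), below the balanced mean of its strain in 10 of 10 mice. B6 livers went from 16.17, 16.37, 16.40, 16.30 and 16.32 on the balanced to 15.90, 16.12, 16.03, 15.75 and 16.02 on the deficient diet. D2 livers went from 16.70, 16.60, 16.61, 16.59 and 16.82 to 16.42, 16.26, 16.31, 16.43 and 16.43. The groups did not overlap in either strain. It passed within B6 (-0.35, SE 0.0759, adjusted p = 0.0148), where 1.80% of all genes passed and 0.683% were lower, and within D2 (-0.29, SE 0.0759, adjusted p = 0.0245), where 4.68% passed and 2.90% were lower, and was the only serpin called on this diet in D2. Enriched livers lay nearer to balanced ones, with a change of -0.11 (adjusted p = 0.351).

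The other 4 changes were smaller against their spread. Serpina3c fell by 0.24 (SE 0.0643, adjusted p = 0.0205): B6 values on the deficient diet were 16.63, 16.60, 16.41, 16.67 and 16.66 and D2 values 17.20, 17.06, 17.53, 17.50 and 17.51, which overlapped the balanced mice of their strain, though all 10 deficient mice were below the balanced mean of their strain. Serpinb6b fell by 0.30 (SE 0.0763, adjusted p = 0.0142), with a change of -0.48 (SE 0.108, adjusted p = 0.0182) within B6. Its B6 values were 10.05, 10.02, 9.52, 9.71 and 9.96 on the balanced and 9.62, 9.35, 9.24, 9.43 and 9.24 on the deficient diet. The highest deficient mouse lay above the lowest balanced one. Its D2 values were 8.98, 9.38, 9.33, 9.30 and 9.41 and 9.39, 8.89, 9.37, 9.15 and 9.01, with a change of -0.12 that did not pass (adjusted p = 0.678).

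Serpina9 fell by 0.63 (SE 0.194, adjusted p = 0.0431) and Serpinb9 fell by 0.41 (SE 0.127, adjusted p = 0.0433), each in 10 of 10 mice. Serpina9 had 6.81, 8.05, 7.67, 8.44 and 8.35 in balanced and 7.73, 7.82, 6.98, 6.82 and 6.64 in deficient B6 livers, and 7.55, 8.23, 8.12, 7.94 and 8.55 and 7.18, 7.25, 7.82, 7.78 and 7.40 in D2. Serpinb9 had 7.64, 7.48, 6.84, 6.81 and 7.02 and 7.12, 6.51, 6.56, 6.90 and 7.05 in B6, and 7.15, 6.97, 7.18, 6.88 and 6.64 and 6.20, 6.61, 6.09, 6.68 and 6.79 in D2. For both genes the deficient and balanced mice overlapped in each strain, and the other Serpinb9 probe gave -0.23 (adjusted p over probes = 0.442). The median change of all 39 serpins was -0.05, beside 0.00 over all tested genes. Of the deficiency effects none differed between strains (limma, 7 serpins at an unadjusted p under 0.05), where 0.0190% of all genes did.

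**Figure D4:**
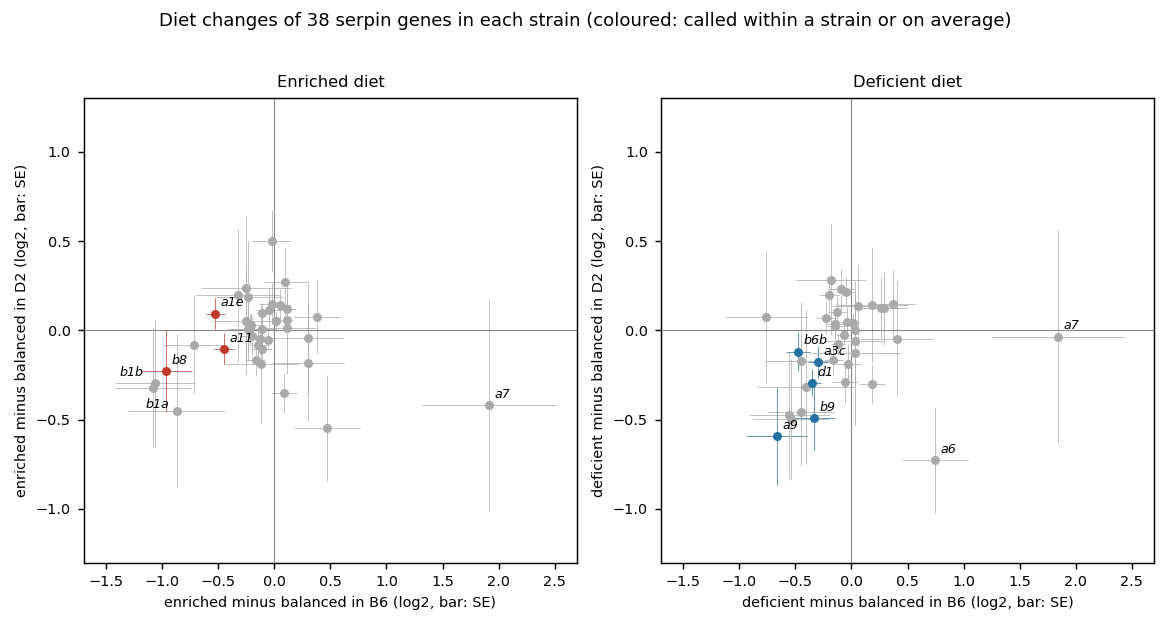
Change of 38 of the 39 tested serpin genes on the enriched (left) and the deficient diet (right), in B6 (horizontal axis) and D2 (vertical axis), as log2 differences from the balanced diet with SE bars. Coloured genes passed within a strain or on average, and letters give the name after Serpin. On the deficient diet the 5 coloured genes lie below 0 in both strains, and on the enriched diet Serpina1e lies at -0.52 in B6 and 0.09 in D2.

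Within scan days the deficiency changes kept their sign. Serpind1 changed by -0.22 within day 2 (adjusted p = 0.364) and -0.39 within day 3 (adjusted p = 0.045), and by -0.32 with day as a block. Serpina3c changed by -0.08 and -0.18, Serpinb6b by -0.45 and -0.22, Serpina9 by -0.19 and -0.78, and Serpinb9 by -0.58 and -0.39. Of these 4, Serpina9 passed within day 3 (adjusted p = 0.0302) and none passed within day 2. Without the day 1 arrays the calls of Serpina3c and Serpina9 were lost. Leaving out single mice in turn kept the averaged calls of Serpind1, Serpina3c and Serpinb6b, while Serpina9 lost its call without any 1 of 14 mice and Serpinb9 without any 1 of 12. The single call in D2, Serpind1, was lost without D2 balanced mouse 1 or 5 or D2 deficient mouse 2 or 3, and its call in B6 without B6 deficient mouse 4. Both were also lost without normalization, without the day 1 arrays, within days 2 and 3, with slide as a block and with the compared groups fitted alone. The call of Serpinb6b in B6 was lost without B6 balanced mouse 5 or B6 deficient mouse 3 or 5.

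**Figure D5:**
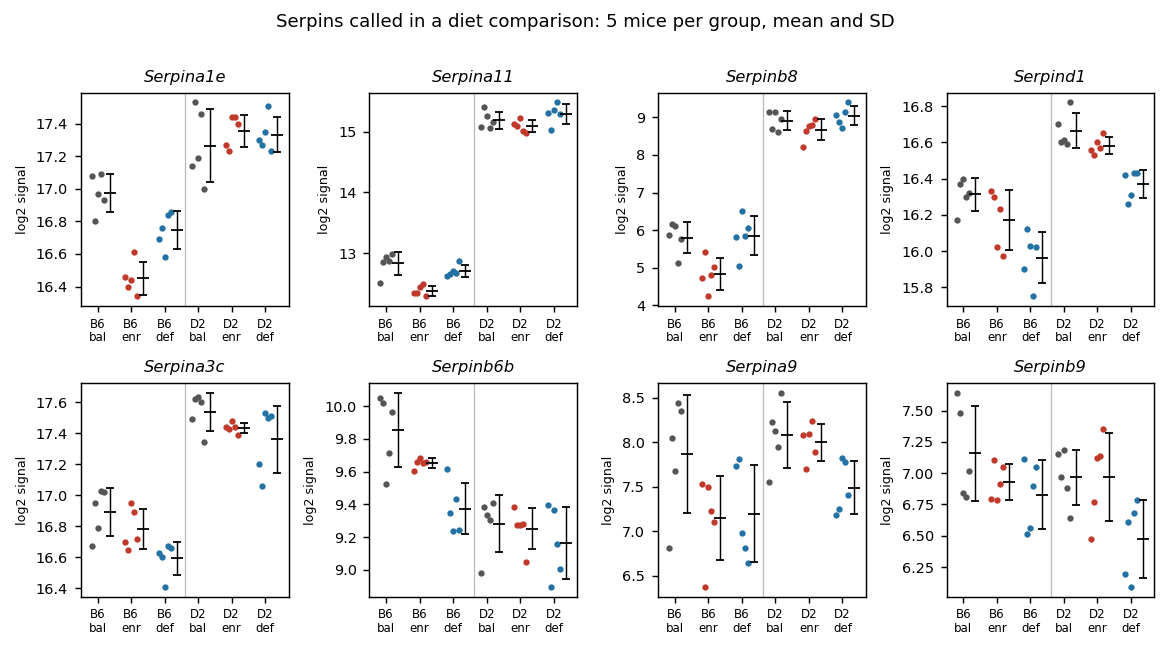
Log2 signal (vertical axis, own scale in each panel) of the 8 serpins called in a diet comparison, on the balanced (bal), enriched (enr) and deficient (def) diet in B6 and D2. Points are the 5 mice of a group and bars are the mean with SD. For Serpind1 the deficient mice lie below the balanced mice in both strains, and for Serpinb8 the strain gap exceeds every diet change.

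Among the partners of these serpins, 4 of 29 clotting and fibrinolysis genes were higher and 1 was lower on the deficient diet: the anticoagulants Pros1 (0.46) and Tfpi (0.43), Vwf (0.41) and F5 (0.25) rose, and Cpb2, which protects clots from plasmin, fell by 0.24. Of 22 complement genes 5 were lower (C8b at -0.69 and Masp1 at -0.35 among them). Of 18 acute-phase genes 4 were lower, Saa1, Saa2, Saa3 and Saa4, and 1 was higher, Stat3, while Serpina3n changed by 0.07 (95% interval -0.10 to 0.24). Of 18 other protease inhibitors 3 were higher, Itih2 (0.22), Itih4 (0.25) and Fetub (0.18). Of 6 Kupffer and 5 T and NK cell markers none passed on the deficient diet (limma, averaged over strains), and 3 of 6 stellate cell markers were higher. Of the 14 male-biased genes 6 were lower and 1 higher on the deficient diet (median -0.53), with 4 lower in B6 and 2 lower and 1 higher in D2, and of the 12 female-biased genes 1 was higher (median 0.25). Their part in the deficiency changes of the serpins was not tested.

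The 15 genes that did not pass the filter were Serpina1f, Serpina12, Serpine2 and 12 clade B genes: Serpinb2, Serpinb3a, Serpinb3b, Serpinb3d, Serpinb5, Serpinb7, Serpinb9b, Serpinb9c, Serpinb9d, Serpinb10, Serpinb11 and Serpinb13. Of all 73 member probes 9 were above background on no array and 40 on all 30 arrays. Serpine2, protease nexin, was above background on 3 of 5 arrays of balanced and 2 of 5 of deficient B6 livers. It was above background on none of the enriched B6 or of any D2 group. By the same bound it was at least 1.28-fold higher in balanced than in enriched B6 livers (means of 4.34, SD 0.429, and 3.92). These signals were near the floor, and the difference was not tested. Serpini1, which passed the filter, was above background on no array of balanced B6 livers and on 5 of 5 in the enriched and deficient B6 groups. The bounds against balanced B6 livers were 1.07-fold and 1.01-fold (measured means of 4.29 and 4.21 against 3.92). Neither change of Serpini1 in B6 was called by limma (0.38 and 0.29).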

How the data were processed

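Each mouse liver was hybridised to 1 single-colour Agilent array. The deposited scanner files hold intensity values per spot that the Agilent Feature Extraction software had background-corrected, with version 9.1.3.1 per the file headers and 9.5.1 in the labels. The deposited value table held the same intensities unchanged (largest difference 0), so it was not a separate normalization. Control spots were left out, 43379 gene spots per array were averaged to 41174 probes, and arrays were quantile-normalised. Normalised signals under the floor of 15.1 (3.92 on the log2 scale, the typical dimmest signal that the software still marked as detected) were then raised to it.

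A probe was tested where it was well above background on at least 3 B6 and 3 D2 arrays, and the probe of highest mean signal stood for its gene. The study's design text names R/MAANOVA, which was not run. In its place limma 3.58.1 (R 4.3.3) fitted the 6 group means, with Benjamini-Hochberg adjustment over 21071 genes, and was checked on simulated data. Named genes were those of the Serpina1 and Serpina3 clusters, those called in a diet comparison, those with the largest strain differences and those with a named role in plasma, and other members were given as counts or with their values. Counts over the family include 1 tested serpin whose own values are not reported here. Serpins named outside that rule were chosen after their values were seen. The members and gene lists were chosen with earlier results of these data known. Mice are separate animals, and their numbers follow the deposit order and pair nothing. The number of arrays limits the precision. Alternatives changed the normalization, background correction, floor, filter, probes, scan day and slide, or left out single mice.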

Additional observations from a re-analysis of the deposited data

Results flagged for a closer look

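Among 157 groups of 5 mice examined for the named serpins, 16 had a mouse whose gap to the nearest other exceeded 0.71 of the group's range. For independent normal values chance gives about 1 in 20 such groups. Here the genes share the same mice, and the brightest probes take repeated levels set by rank. An excess over that rate therefore cannot be judged. All values are log2 signals.

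In clade A, Serpina11 was lowest in balanced B6 mouse 1 at 12.51 (others 12.85 to 12.98), Serpina6 in the same mouse at 12.77 (13.41 to 13.54), Serpina1d in enriched D2 mouse 2 at 18.47 (others 18.54), and Serpina3c in deficient B6 mouse 3 at 16.41 (16.60 to 16.67). Serpina3a was highest in enriched D2 mouse 4 at 8.732 (8.468 to 8.53) and Serpina3k in balanced B6 mouse 4 at 18.85 (18.67 to 18.72). Serpina3m was lowest in balanced B6 mouse 5 at 18.91 (others 19) and in deficient D2 mouse 2 at 18.54 (18.72 to 18.78).

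In clade B, Serpinb1c was lowest in balanced B6 mouse 4 at 5.444 (7.241 to 7.754) and in enriched D2 mouse 4 at 4.529 (5.609 to 5.812), and Serpinb6b in balanced D2 mouse 1 at 8.98 (9.302 to 9.411). Among the plasma serpins, Serpinc1 was highest in enriched B6 mouse 1 at 17.78 (17.67 to 17.69) and lowest in deficient B6 mouse 4 at 17.53 (17.62 to 17.64). Serpinf2 was highest in deficient B6 mouse 3 at 15.91 (15.81 to 15.83). Serping1 was highest in balanced B6 mouse 1 at 15.54 (15.33 to 15.38) and lowest in balanced D2 mouse 5 at 15.05 (15.50 to 15.57).

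The enrichment effect on Serpina1e differed between D2 and B6 by 0.6176, a limma interaction that passed. Serpinb2, the plasminogen activator inhibitor PAI-2, was left out of the tests, yet it was above background on 3 of 5 arrays in enriched B6 livers and on 3 of 5 in deficient B6 livers, against 0 of 5 in balanced ones. By this probe it was at least 1.15-fold higher in enriched than in balanced B6 livers, and no fold can be given for the deficient livers. The enriched mean was near the floor (4.39, SD 0.696). The other Serpinb2 probe was above background on 1 of 5 arrays in each of these diets, and its enriched mean was at the floor of 3.92. The difference was not tested.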

How the results depend on the processing

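No paired analysis was possible because the mouse numbers follow the deposit order. The 42 called serpin results kept their direction in all 517 comparisons with an alternative other than leaving out a mouse and lost the call in 91, and the 309 results that were not called passed in 31 of 3920 comparisons and changed sign in 380. Directions in these comparisons are those of the brightest probe, so a reversal by another probe is not counted. Serpina3k had such a reversal between strains (-0.17 by the brightest probe and 0.42 by the other). The count of strain differences stayed between 19 and 30 of the tested serpins in all alternatives and at 27 to 29 without single mice. Other counts moved. For deficiency averaged over strains (5 called) the count was 1 with the compared groups alone and without normalization, 3 with no filter and without scan day 1, 2 within day 3 and 0 within day 2. In B6 (2 called) it was 0 with the compared groups alone, without normalization, with slide as a block and within days 2 and 3, and 1 without day 1. In D2 (1 called) it was 0 with the compared groups alone, without normalization, within days 2 and 3 and without day 1. For enrichment averaged over strains (2 called) the count was 1 with the compared groups alone, with every probe tested, with a floor of 1 and with no filter, and 0 with slide as a block, within day 2 and without day 1. In B6 (3 called) it was 5 with slide as a block and 0 within day 2, in D2 (0 called) 1 within day 3 (Serping1, 0.43), and for the strain difference in enrichment (1 called) 0 without normalization, within day 2 and without day 1, while within day 3 Serping1 was called (0.62) in place of Serpina1e. Without single mice the counts ran from 3 to 5 for deficiency averaged over strains, 1 to 3 in B6, 0 to 1 in D2, 1 to 4 for enrichment averaged over strains and 3 to 5 in B6, and stayed at 0 in enriched D2 livers and 1 and 0 for the strain differences in enrichment and deficiency. Fewer arrays enter the within-day fits and fewer mice the compared groups alone, and for the other settings the cause was not tested. Leaving out scan day 1 was chosen after seeing the data. Without normalization the share of called genes that were higher went from 54% to 24.8% for enrichment, 48.2% to 69.6% for deficiency and 51.7% to 28.6% between strains. Calls over all tested genes went from 1709 to 979 for deficiency averaged over strains in that setting. They went from 380 to 274 for deficiency in B6 and 986 to 452 in D2. For the strain difference in enrichment they rose from 234 to 894. Outside the scaling settings, calls over all genes were not counted. Signals near the floor of 3.92 limit Serpina3a and Serpina5 in B6 and Serpini1.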

Other observations

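Serpina6 and Serpina7 carry hormones, and genes that handle steroid and thyroid hormones were given as a list of 8. Between strains 6 of these were higher and 1 lower in D2. Srd5a1, which reduces steroids, was lower in both diet comparisons, by -1.01 on the enriched and -1.08 on the deficient diet, each set against the same balanced mice.

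Of 10 liver transcription factors 1 was lower on the enriched diet as a mean of both strains (Foxa3, -0.50) and none passed on the deficient diet. Of 11 tested leukocyte and cell-surface proteases, potential targets of serpins, 1 was higher on the deficient diet (Tmprss2, 0.50) and none passed on the enriched diet.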
